A study of Homo sapiens with 6 samples.

Results

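Nuclear receptors are transcription factors, many of which switch genes on or off when a small lipid-soluble molecule, such as a bile acid, a retinoid or a steroid, binds to them. The genes examined were 43 nuclear receptor genes, chosen by gene name from a list of the family that leaves out HNF4A. Of these, 40 were in the deposited table of 29153 genes and 28 passed the filter on low values. The expression of the other 3, ESRRG, PGR and RXRG, was not analysed here.

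The libraries came from HepG2, a line of human liver cancer cells, collected 72 h after lentiviral delivery of a hairpin RNA. The 3 sh-NC libraries carried a control hairpin, and the 3 sh-LINC01977 libraries carried a hairpin against the long non-coding RNA LINC01977, whose role in these cells the study asked about. All 6 came from the same line, which the study selected with puromycin, and all of the sh-LINC01977 libraries carried 1 hairpin, so an effect of that hairpin on other transcripts cannot be told apart from the loss of LINC01977. Nothing in the labels says that the libraries of a group came from separate cultures, so p-values measure only the spread between these samples.

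In the liver, nuclear receptors read the state of the cell's metabolism. Bile acid, oxysterol and drug-sensing receptors, the peroxisome proliferator-activated receptors (PPARs) and the retinoic acid receptors bind DNA mostly as partners of a retinoid X receptor (RXR). Others, such as NR5A1 and the COUP-TF genes, are called orphans because no ligand was known for them when they were found, and NR0B2 has no DNA-binding domain and represses other receptors.

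LINC01977 was the targeted gene. It had 4, 0 and 16 counts in sh-NC and 0, 0 and 4 counts in sh-LINC01977. These counts overlap and are few in every library, so they do not check the labels. Total counts ranged from 49929024 to 60441515 a library, and correlations of log values were 0.978 to 0.981 within a group and 0.970 to 0.973 between groups, so no library stood apart.

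The cells were checked against markers of liver and of other cell types. All 10 hepatocyte and HepG2 markers passed the filter, and 6 of them fell, against 8.07% of all tested genes, while none rose. Their summed level was 5264 to 5711 FPKM (fragments scaled to gene length and library total) in sh-NC libraries and 4088 to 4117 FPKM in sh-LINC01977 libraries. Of 10 listed mesenchymal markers 6 were analysed, 3 passed the filter and 1, PDGFRB, rose, against 7.05% of all tested genes. The summed levels of the 6 were 20.1 to 20.3 FPKM in sh-NC and 20.8 to 25.9 FPKM in sh-LINC01977 libraries. The fibroblast marker VIM was at 0.12 FPKM, under the filter, but COL1A1 was at 3.72 FPKM and ACTA2 at 16.6 FPKM. VIM was lower in every sh-LINC01977 library (38, 30 and 4 counts) than in every sh-NC library (48, 83 and 64 counts) and was not called. COL1A1 was higher in every sh-LINC01977 than in every sh-NC library, and neither COL1A1 nor ACTA2 was called. Of 10 listed leukocyte and endothelial markers 8 were analysed, 4 passed the filter and none was called, with summed levels of 12.2 to 14.6 and 16.3 to 18.5 FPKM. The leukocyte marker PTPRC was at 0 in 5 libraries and had 4 counts in the other. CD68 was at 12.6 FPKM and higher in every sh-LINC01977 than in every sh-NC library, but was not called (adjusted p = 0.063, edgeR). CDH5 of the same list lay under the filter and went the other way, also uncalled. It had 39, 23 and 64 counts in sh-NC and 14, 4 and 10 counts in sh-LINC01977 libraries. VIM, COL1A1, ACTA2, PTPRC, CD68 and CDH5 were named after their values were seen. The part of the lower hepatocyte markers in the results on the receptors was not tested, and in bulk RNA fewer cells of a kind and less RNA per cell cannot be told apart.

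The upstream sequence of 3 genes is printed because NR1H4 and NR5A1 had the largest falls among the receptors and RARG the largest rise. The 200 bases of each are taken from RefSeq on GRCh38.p14, start 250 bases before the RefSeq start of the gene and read 5′ to 3′ on the gene's strand. Capitals mark a match to AGGTCA on either strand, the half-site that many nuclear receptors bind, or to CACGTG, the E-box bound by clock and MYC proteins, which reads the same on both strands.
NR1H4: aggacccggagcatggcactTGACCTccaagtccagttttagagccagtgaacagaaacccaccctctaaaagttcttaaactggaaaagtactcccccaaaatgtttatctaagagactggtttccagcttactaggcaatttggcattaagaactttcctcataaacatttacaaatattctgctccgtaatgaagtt
NR5A1: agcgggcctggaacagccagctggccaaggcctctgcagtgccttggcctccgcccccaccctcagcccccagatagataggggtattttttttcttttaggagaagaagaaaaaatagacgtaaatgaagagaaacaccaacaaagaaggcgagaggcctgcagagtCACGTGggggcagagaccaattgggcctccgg
RARG: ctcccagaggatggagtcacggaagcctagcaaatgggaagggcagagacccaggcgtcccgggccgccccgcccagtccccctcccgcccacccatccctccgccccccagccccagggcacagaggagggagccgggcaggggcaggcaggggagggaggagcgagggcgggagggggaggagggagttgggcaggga

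The NR1H4 stretch is chr12:100503110-100503309 on the plus strand, inside the gene's span in the table, and holds a half-site on the minus strand that starts 230 bases before the RefSeq start. The NR5A1 stretch is chr9:124507450-124507649 on the minus strand and holds an E-box 82 bases before the start. The RARG stretch is chr12:53232260-53232459 on the minus strand and has neither motif. Over the 250 bases before each start, AGGTCA was found in 3316 of 27305 promoters (12.14%) and in 7 of 38 receptor promoters, and CACGTG was found in 6.49% of promoters and in 3 of 38. Of the 8 receptor genes that were called and had a promoter entry, 1 held AGGTCA and 2 held CACGTG. Both motifs were chosen after the sequences were seen, and a match is a description of the letters, not evidence of binding.

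The levels of the receptor genes were widely spread. NR0B2 was the most abundant per length, with a mean of 27.9 FPKM over the 6 libraries, followed by NR5A1 (17.4 FPKM), NR1H4 (16.0 FPKM) and NR2F6 (15.9 FPKM). The order of the last 3 depends on the group, since NR1H4 averaged 23.1 ± 1.74 FPKM in sh-NC and 8.94 ± 1.22 FPKM in sh-LINC01977 libraries (SD, n = 3). RXRB (9.12 FPKM), NR6A1 (7.66 FPKM) and PPARD (7.12 FPKM) came next. Steroid receptors were low apart from the glucocorticoid receptor NR3C1 (3.94 FPKM), and ESR1 and RORB had counts in 1 library each.

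**Figure D1:**
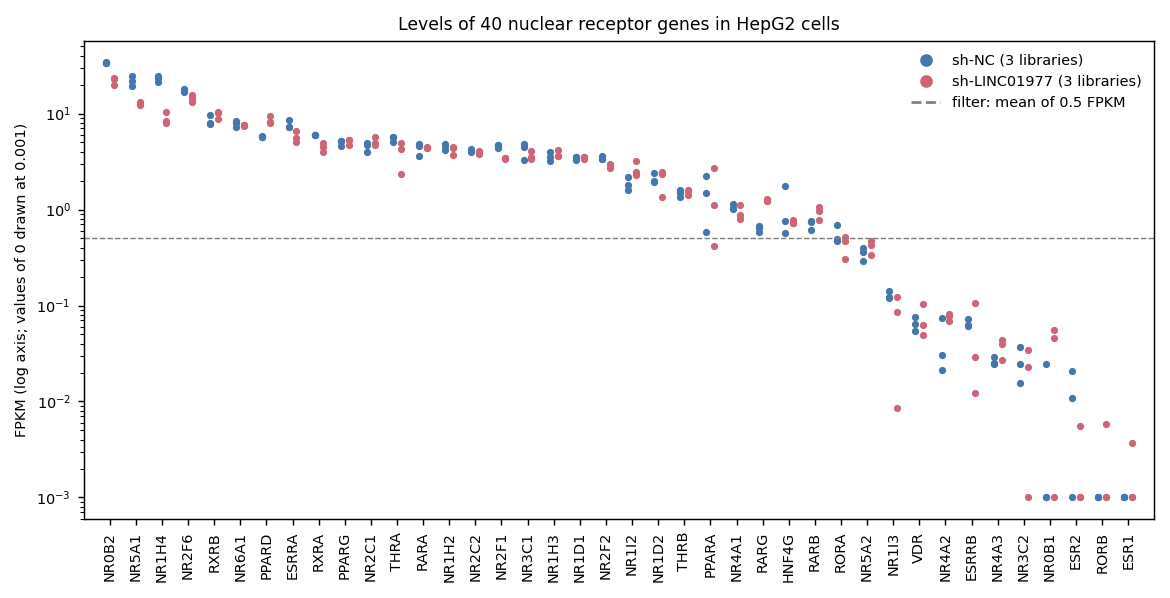
FPKM values on a log axis of the 40 nuclear receptor genes in the table, in order of their mean over 6 libraries, with 1 point for each sh-NC (blue) and sh-LINC01977 (red) library and the filter at 0.5 FPKM as a dashed line. Of the genes drawn, 28 have a mean above the line, and NR0B2, NR5A1 and NR1H4 are at the top.

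More nuclear receptor genes fell than rose in sh-LINC01977 cells, and NR1H4, NR5A1 and NR0B2, the 3 most abundant in sh-NC cells, had the largest falls. Of the 28 tested genes, 10 (35.7%) were called at an adjusted p under 0.05 by the quasi-likelihood test of edgeR (Benjamini-Hochberg adjustment over all tested genes), against 15.1% of all 13452 tested genes. Of the 28, 8 were called lower, against 8.07% of all tested genes. Of the same 28, 2 were called higher, a share near the 7.05% among all tested genes. The receptor genes were chosen with earlier results of these data known, so these shares are descriptions. The fall of NR1H4 was the only one of 2-fold or more at an unadjusted p of at most 0.05, a threshold passed by 2.6% of all tested genes. The median log2 fold change was -0.14 for the 28 receptor genes and -0.0010 for all tested genes, and the median size of the change was 0.28 and 0.18. The libraries of both groups did not overlap in 12 receptor genes (42.9%), against 37.1% of all tested genes, so by this measure the share lies close to the background.

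**Figure D2:**
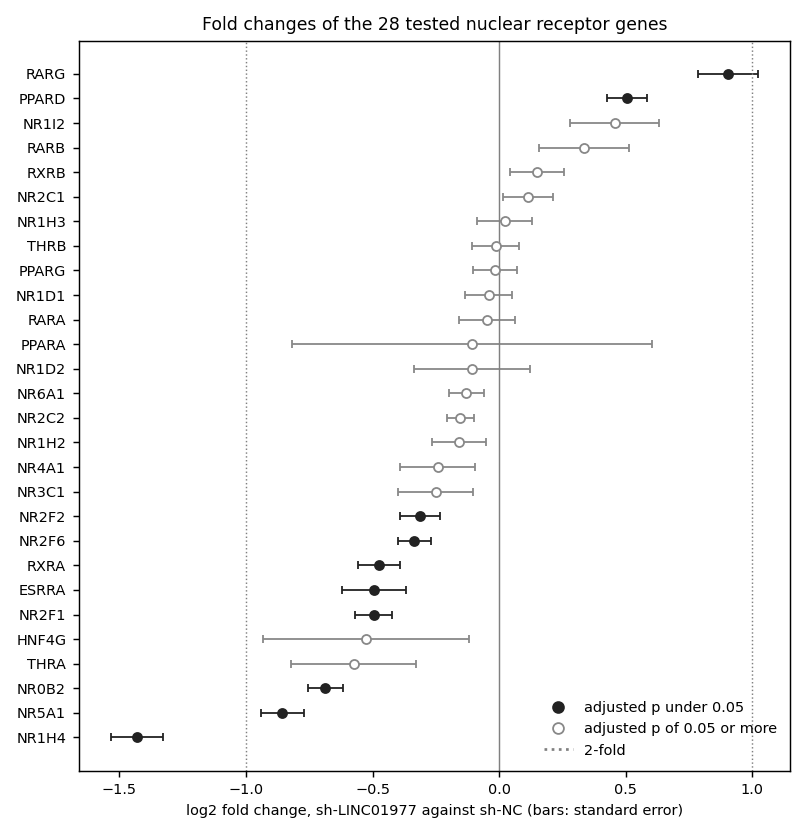
Log2 fold change of the 28 tested nuclear receptor genes, sh-LINC01977 against sh-NC, with bars of 1 standard error, filled points for the 10 genes with an adjusted p under 0.05 and dotted lines at 2-fold. NR1H4 (-1.43) lies past the lower line, RARG (0.90) is the highest, and PPARA has the widest bar (0.71).

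Among the receptors of bile acids, oxysterols and drugs, 2 of 5 tested genes fell, against 8.07% of all tested genes, and none rose. NR1H4 encodes FXR, the bile acid receptor, and lies at chr12:100473708-100564413. Its level in CPM (counts of the gene in each 1000000 counts of the library, after TMM scaling) was 93.5, 102 and 107 in sh-NC and 33.6, 35.7 and 42.5 in sh-LINC01977 libraries. Every sh-LINC01977 library was below every sh-NC library. The log2 fold change was -1.43 ± 0.10 (SE, adjusted p = 0.00087, edgeR), a fall of 2.70-fold.

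NR0B2 encodes SHP, a repressor that FXR induces, and lies at chr1:26911489-26913966. Its level was 50.1, 49.3 and 48.6 CPM in sh-NC and 32.3, 28.1 and 31.4 CPM in sh-LINC01977 libraries. The groups were well apart, and the sh-NC libraries differed little among themselves. The log2 fold change was -0.69 ± 0.07 (adjusted p = 0.0019, edgeR).

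The other receptors of this group were not called. NR1I2, the drug sensor PXR, was at 11.0, 14.9 and 12.2 CPM in sh-NC and 16.1, 21.2 and 14.8 CPM in sh-LINC01977 libraries, with a log2 fold change of 0.46 ± 0.18 (adjusted p = 0.13, edgeR). Its groups overlapped by a small margin. The oxysterol receptors NR1H3 (LXRα) and NR1H2 (LXRβ) had log2 fold changes of 0.02 ± 0.11 and -0.16 ± 0.11. NR1I3, the drug sensor CAR, lay under the filter with counts of 32, 33 and 32 in sh-NC and 2, 34 and 18 in sh-LINC01977 libraries, and 661 of its 3305 exonic bases are shared with TOMM40L on the other strand.

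Of the PPARs, receptors of fatty acids, 1 of 3 rose, against 7.05% of all tested genes, and none fell. PPARD, found in most tissues, lies at chr6:35342558-35428191 and was at 32.7, 32.4 and 31.5 CPM in sh-NC and 50.5, 43.2 and 43.5 CPM in sh-LINC01977 libraries. Every sh-LINC01977 library was above every sh-NC library, and the log2 fold change was 0.50 ± 0.08 (adjusted p = 0.0083, edgeR). PPARG, the receptor of fat cell formation, had a log2 fold change of -0.02 ± 0.09 with overlapping groups. PPARA, the main PPAR of hepatocytes, was at 24.9, 37.5 and 9.73 CPM in sh-NC and 6.61, 17.9 and 42.4 CPM in sh-LINC01977 libraries. It spread 6.41-fold within a group, and its log2 fold change was -0.11 ± 0.71. The sign turned without sh-NC replicate 2 (0.37), sh-LINC01977 replicate 1 (0.33) or sh-LINC01977 replicate 2 (0.03).

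Of the retinoid X receptors, the shared partners of many receptors above, RXRA fell and RXRB was not called. RXRA lies at chr9:134317098-134440585 and was at 82.8, 80.3 and 80.5 CPM in sh-NC and 65.0, 52.7 and 57.5 CPM in sh-LINC01977 libraries. The groups did not overlap, and the log2 fold change was -0.48 ± 0.08 (adjusted p = 0.012, edgeR). RXRB was at 38.5, 47.6 and 39.1 CPM in sh-NC and 49.6, 41.8 and 47.3 CPM in sh-LINC01977 libraries, with a log2 fold change of 0.15 ± 0.11 (adjusted p = 0.40) and overlapping groups. It shares 6.22% of its exonic bases with the highly expressed SLC39A7 on the other strand.

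Among the retinoic acid, thyroid hormone and vitamin D receptors, 1 of 5 tested genes rose, against 7.05% of all tested genes, and none fell. RARG encodes the gamma form of the retinoic acid receptor, lies at chr12:53210567-53232980 and was at 4.21, 3.81 and 4.40 CPM in sh-NC and 7.69, 7.64 and 7.92 CPM in sh-LINC01977 libraries. The groups were well apart at a low level, with a mean of 0.94 FPKM. The log2 fold change was 0.90 ± 0.12 (adjusted p = 0.0047, edgeR).

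The other forms of the retinoic acid receptor were not called. RARA had a log2 fold change of -0.05 ± 0.11 and RARB, itself a known target of retinoic acid, of 0.34 ± 0.18 (adjusted p = 0.25). RARA shares 11.8% of its exonic bases with RARA-AS1. THRA, the thyroid hormone receptor alpha, was at 50.6, 44.5 and 49.3 CPM in sh-NC and 41.4, 20.03 and 35.7 CPM in sh-LINC01977 libraries. Although the groups did not overlap, the sh-LINC01977 libraries spread 2.07-fold and the log2 fold change of -0.57 ± 0.25 was not called (adjusted p = 0.17, edgeR). THRB, the beta form, had a log2 fold change of -0.01 ± 0.09, and VDR, the vitamin D receptor, had 18 to 40 counts a library and lay under the filter.

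The fall of RXRA and the rises of RARG and PPARD were also read as ratios within a library, which do not depend on the scaling between libraries. In log2 units RXRA over RXRB was 1.10, 0.75 and 1.04 in sh-NC and 0.39, 0.33 and 0.28 in sh-LINC01977 libraries, a difference of -0.63. RARG over RARA differed by 0.95, PPARD over PPARG by 0.52, NR1H4 over NR1H3 by -1.46 and NR5A1 over NR6A1 by -0.72. The groups did not overlap for any of these 5 pairs, each with an exact 2-sided permutation p of 0.1 (adjusted 0.1), the smallest that 3 against 3 libraries can give. The pairs were chosen after the values were seen, each with a called gene over one that was not called, so these p-values add no support.

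**Figure D3:**
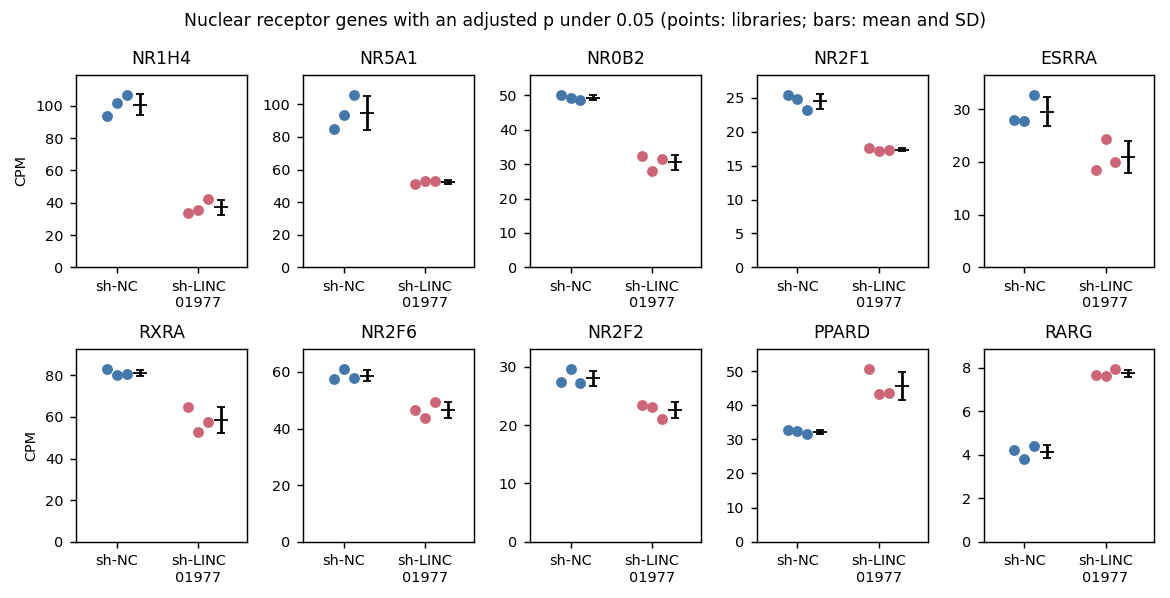
CPM in each library of the 10 nuclear receptor genes with an adjusted p under 0.05, on axes that start at 0, with the mean and SD of 3 libraries as a bar beside the points. In all 10 the sh-NC (blue) and sh-LINC01977 (red) libraries do not overlap, with 8 genes lower and PPARD and RARG higher in sh-LINC01977.

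Of the steroid receptors, only NR3C1, the glucocorticoid receptor, passed the filter. Its levels were 38.1, 52.0 and 55.0 CPM in sh-NC and 37.4, 39.9 and 44.8 CPM in sh-LINC01977 libraries. The groups overlapped, and the log2 fold change was -0.25 ± 0.15 (adjusted p = 0.30, edgeR). NR3C2, the mineralocorticoid receptor, had 0 to 16 counts a library, the estrogen receptor ESR2 had 0 to 14 counts, and ESR1 had 4 counts in 1 library and 0 in the others.

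ESRRA, an estrogen-related receptor that drives mitochondrial genes, fell. It lies at chr11:64305572-64316743 and was at 28.04, 27.8 and 32.6 CPM in sh-NC and 18.4, 24.4 and 20.1 CPM in sh-LINC01977 libraries. The groups did not overlap, but the log2 fold change of -0.49 ± 0.13 was close to the threshold (adjusted p = 0.045, edgeR), and 9.37% of its exonic bases are shared with TRMT112 on the other strand. The call was lost when any library other than sh-LINC01977 replicate 2 was left out, with adjusted p from 0.079 to 0.12. ESRRB had 4 to 37 counts a library.

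NR5A1 encodes SF-1, a regulator of steroid-producing cells that binds the same kind of site as the liver receptor LRH-1 (NR5A2). It lies at chr9:124481236-124507430 and was at 85.1, 93.6 and 106 CPM in sh-NC and 51.1, 52.8 and 53.1 CPM in sh-LINC01977 libraries. Every sh-LINC01977 library was below every sh-NC library, and the log2 fold change was -0.86 ± 0.08 (adjusted p = 0.0019, edgeR). In these cells NR5A2 lay under the filter at 0.38 FPKM, with 193, 138 and 222 counts in sh-NC and 171, 242 and 216 counts in sh-LINC01977 libraries, so the gonad and adrenal member of the pair was the higher in FPKM.

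HNF4G, a relative of the liver factor left out of the list, was at 3.49, 4.58 and 10.7 CPM in sh-NC and 4.23, 4.29 and 4.52 CPM in sh-LINC01977 libraries. Replicate 3 of sh-NC set its difference, with a log2 fold change of -0.53 ± 0.41 over all libraries (adjusted p = 0.43, edgeR) and 0.11 without that library. NR0B1, the repressor DAX1 and a close relative of NR0B2, had 0 to 8 counts a library.

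All 3 COUP-TF genes fell, against 8.07% of all tested genes, while none of NR2C1, NR2C2 and NR6A1 was called. NR2F1 (COUP-TFI) lies at chr5:93583337-93594615 and was at 25.4, 24.9 and 23.2 CPM in sh-NC and 17.6, 17.1 and 17.3 CPM in sh-LINC01977 libraries. The libraries of each group lay close together and the groups were apart. The log2 fold change was -0.50 ± 0.07 (adjusted p = 0.0071, edgeR).

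NR2F6, at chr19:17231883-17245940, was at 57.5, 60.9 and 57.8 CPM in sh-NC and 46.7, 43.6 and 49.3 CPM in sh-LINC01977 libraries, with a log2 fold change of -0.34 ± 0.07 (adjusted p = 0.018, edgeR). NR2F2 (COUP-TFII), at chr15:96325938-96340263, was at 27.4, 29.6 and 27.2 CPM in sh-NC and 23.5, 23.2 and 21.1 CPM in sh-LINC01977 libraries, with a log2 fold change of -0.31 ± 0.08 (adjusted p = 0.041, edgeR). Neither gene had overlapping groups. The call on NR2F2 was lost without any 1 library (adjusted p from 0.072 to 0.11). That on NR2F6 was lost without sh-NC replicate 2 (adjusted p = 0.061), sh-LINC01977 replicate 1 (0.054) or sh-LINC01977 replicate 2 (0.057). Without sh-NC replicate 2 or sh-LINC01977 replicate 1, 5 receptor genes fell in place of 8, and without any other library 6 fell.

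NR2C2, a testicular orphan receptor, was at 64.0, 59.7 and 61.8 CPM in sh-NC and 54.9, 55.3 and 56.6 CPM in sh-LINC01977 libraries. The groups did not overlap, but the log2 fold change of -0.15 ± 0.05 was not called (adjusted p = 0.11, edgeR), and 10.1% of its exonic bases are shared with MRPS25. NR2C1 and NR6A1 had log2 fold changes of 0.12 ± 0.10 and -0.13 ± 0.07.

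Of the receptors that act in the daily clock, NR1D1 and NR1D2 (the REV-ERB repressors) passed the filter and neither was called. Their log2 fold changes were -0.04 ± 0.09 and -0.11 ± 0.23. NR1D1 overlaps the neighbouring THRA over 263 exonic bases on the other strand, 9.49% of its own, and whether the counting used strand is not given in the sources used here. RORA, an activator of the same sites, lay just under the filter at 0.49 FPKM with 322 to 731 counts a library, and RORB had 4 counts in 1 library. NR4A1, an immediate early gene, was not called (log2 fold change -0.24 ± 0.15), while NR4A2 had 7 to 23 and NR4A3 12 to 21 counts a library.

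**Figure D4:**
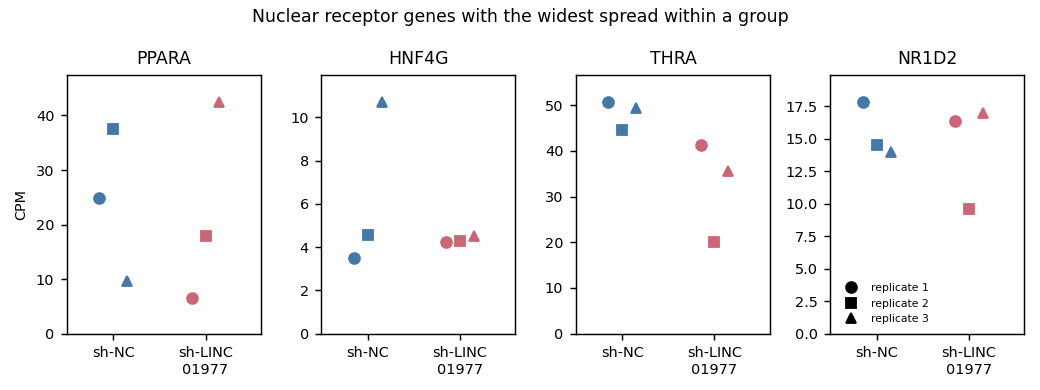
CPM in each library, on axes that start at 0, of the 4 tested nuclear receptor genes with the widest ratio of highest to lowest library within a group, with a shape for each replicate number. PPARA ranges from 6.61 to 42.4 in sh-LINC01977, HNF4G has 1 high sh-NC library at 10.7, and THRA and NR1D2 are lowest in sh-LINC01977 replicate 2.

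Of the 12 receptor genes under the filter, none was called in an edgeR fit of all 29153 genes and none had an unadjusted p under 0.05 there. DESeq2 called none of them, gave none an unadjusted p under 0.05 and gave 8 no adjusted p. That edgeR fit called 5.36% of all genes and 0.739% of the 15701 genes under the filter.

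Coregulators and known target genes were then counted by list. The lists were chosen with earlier results of these data known, so their counts are descriptions. Coactivators such as the PGC-1 and p300 families add acetyl groups or recruit the transcription machinery, and corepressors such as NCOR1 recruit histone deacetylases. Of 19 tested coregulator genes none rose and 3 fell, with a median log2 fold change of -0.01, beside 15.1% called and a median of -0.0010 over all tested genes. PPARGC1A (PGC-1α), a coactivator of PPARs and ESRRA in energy metabolism, fell from 17.4 ± 1.15 to 8.56 ± 0.97 CPM (SD, n = 3). Its log2 fold change was -1.02 ± 0.12 (adjusted p = 0.0029, edgeR). CREBBP, a histone acetyltransferase, and TBL1X, a subunit of the NCOR complex, fell by 0.39 and 0.25 on the log2 scale. Without sh-LINC01977 replicate 2 or replicate 3, PPARGC1A alone of this list was called.

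Of 6 tested bile acid receptor targets 1 fell, a share near the 15.1% called among all tested genes, and the list's median log2 fold change was -0.35. SLC51B, the beta chain of the bile acid exporter that FXR induces, fell from 26.7 ± 1.39 to 15.2 ± 0.60 CPM, with a log2 fold change of -0.81 ± 0.08 (adjusted p = 0.0017, edgeR). Its partner chain SLC51A, at 512, 582 and 351 counts in sh-NC and 347, 298 and 205 counts in sh-LINC01977 libraries and named after its values were seen, was not called (log2 fold change -0.84 ± 0.28, adjusted p = 0.10, edgeR). FETUB went the other way, with every sh-LINC01977 library above every sh-NC library. It was not called (log2 fold change 0.54 ± 0.22, adjusted p = 0.15, edgeR). BAAT (-0.56), ABCB4 (-0.15) and SLC27A5 (-0.09) were not called either. These genes were also named after their values were seen. Without sh-NC replicate 3, 2 genes of this list were called.

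Of 8 tested targets of the xenobiotic receptors 3 fell, against 8.07% of all tested genes, and none rose, with a median of -0.11. CYP3A7, the fetal form of the drug-metabolising CYP3A enzymes, was at 3.86 ± 0.89 CPM in sh-NC and 1.42 ± 0.35 CPM in sh-LINC01977 libraries (log2 fold change -1.44 ± 0.27, adjusted p = 0.015, edgeR). Its mean was 0.86 FPKM in sh-NC and 0.33 FPKM in sh-LINC01977 libraries. It passed the filter of 0.5 FPKM, and entered the counts of this list, only through sh-NC. POR, the electron donor of the cytochromes P450, and ALAS1, the first enzyme of haem synthesis, fell by 0.42 and 0.21 on the log2 scale. CYP3A7 belongs to a family of near-identical copies, among which the counting could split reads. Without sh-LINC01977 replicate 1 or replicate 2, 1 gene of this list was called in place of 3, and the call on ALAS1 was lost without any 1 library.

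Of 14 tested PPAR targets 2 fell and none rose, with a median of -0.18. This share and that of the liver X receptor targets lie near the 15.1% called among all tested genes. FABP1, the liver fatty acid binding protein, fell from 72.9 ± 6.33 to 42.6 ± 6.63 CPM (log2 fold change -0.77 ± 0.13, adjusted p = 0.0098, edgeR), and CPT1A, the entry enzyme of mitochondrial fatty acid oxidation, fell by 0.27 on the log2 scale. Leaving out any library other than sh-LINC01977 replicate 1 left 1 call. Of 8 tested targets of the liver X receptors 1 fell. It was SCD, the stearoyl-CoA desaturase, by 0.25 on the log2 scale, and without sh-NC replicate 2 none was called.

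Of 13 tested clock genes 1 rose and 1 fell, a share near the 15.1% called among all tested genes. ARNTL (BMAL1), which the REV-ERB proteins repress, was at 5.14 ± 0.14 CPM in sh-NC and 7.13 ± 0.34 CPM in sh-LINC01977 libraries (log2 fold change 0.47 ± 0.11, adjusted p = 0.035, edgeR), and NFIL3 fell by 0.42 on the log2 scale. The call on ARNTL was lost without any 1 library (adjusted p from 0.080 to 0.11, edgeR), and NFIL3 stayed called. Of 6 tested glucocorticoid receptor targets 2 rose, against 7.05% of all tested genes, and 1 fell, against 8.07%. FKBP5, a chaperone of that receptor, rose from 58.3 ± 6.05 to 81.3 ± 0.23 CPM and KLF9, a zinc finger factor, from 15.1 ± 0.37 to 19.9 ± 1.10 CPM, whereas TAT, the first enzyme of tyrosine breakdown, fell by 0.85 on the log2 scale. The mean of TAT was 0.84 FPKM in sh-NC and 0.49 FPKM in sh-LINC01977 libraries, so TAT passed the filter of 0.5 FPKM only through sh-NC. The call on KLF9 was lost without sh-NC replicate 1 or 2 or sh-LINC01977 replicate 1 or 2 (adjusted p from 0.063 to 0.073, edgeR).

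The list of retinoid, vitamin D and thyroid hormone targets was the one with most rises. Of 7 tested genes 5 rose, against 7.05% of all tested genes, and none fell, and the median log2 fold change was 1.01. Because the list was chosen with earlier results of these data known, this comparison is not an independent test. CRABP2, which carries retinoic acid to the nucleus, rose from 2.96 ± 0.87 to 11.0 ± 1.43 CPM (log2 fold change 1.89 ± 0.25, adjusted p = 0.0047, edgeR). STRA6, the cellular retinol importer, was at 4.08, 3.61 and 2.53 CPM in sh-NC and 8.56, 8.10 and 9.05 CPM in sh-LINC01977 libraries, with no overlap at these low levels (log2 fold change 1.33 ± 0.19, adjusted p = 0.0069, edgeR). The mean of STRA6 was 0.34 FPKM in sh-NC and 0.91 FPKM in sh-LINC01977 libraries. It passed the filter of 0.5 FPKM, and entered the counts of this list, only through the group where it was high.

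TGM2, a transglutaminase, was at 65.8, 66.5 and 63.8 CPM in sh-NC and 197, 189 and 169 CPM in sh-LINC01977 libraries. Each group was tight, and the log2 fold change was 1.50 ± 0.07 (adjusted p = 0.00032, edgeR). The other risers, named after their values were seen, were CYP24A1, which breaks down vitamin D (log2 fold change 1.01), and KLF9 (0.40), which is also in the list of glucocorticoid receptor targets. DHRS3, a retinal reductase, and DIO1, which activates thyroid hormone, had log2 fold changes of -0.19 ± 0.09 and -0.35 ± 0.18, were not called and were also named after their values were seen. Beside these 7 genes RARG rose, RXRA fell and VDR stayed under the filter, and whether the genes of this list moved with either receptor was not tested.

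**Figure D5:**
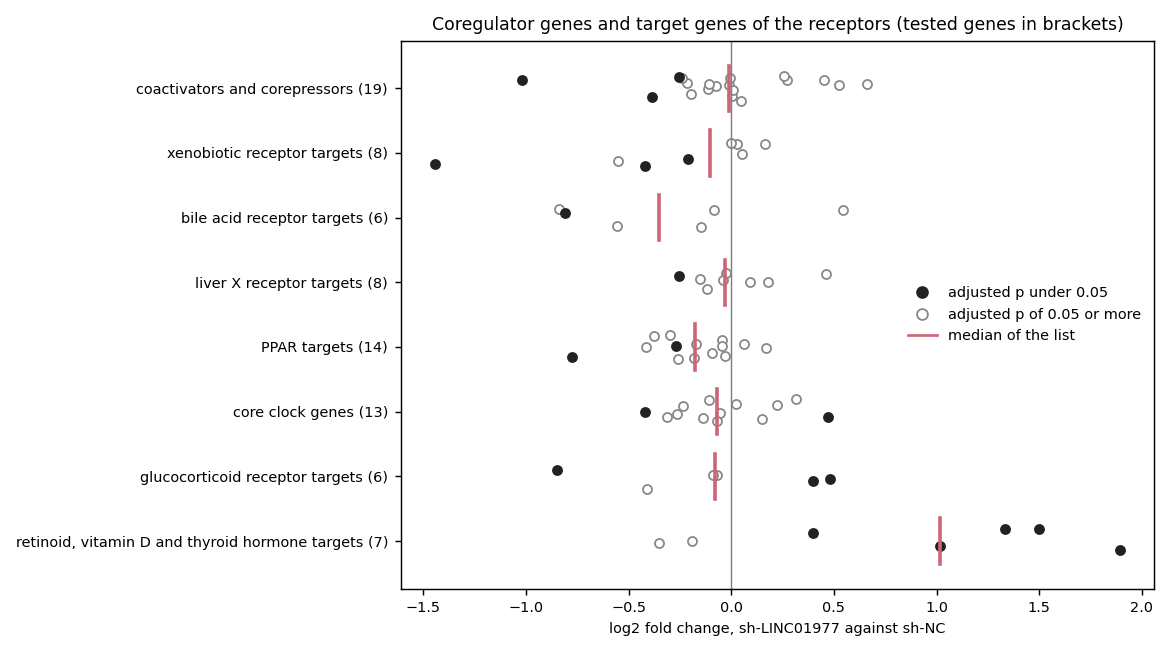
Log2 fold change, sh-LINC01977 against sh-NC, of each tested gene in 8 lists of coregulators and target genes (number of tested genes in brackets), with filled points for an adjusted p under 0.05 and a bar at the median. In the list of retinoid, vitamin D and thyroid hormone targets 5 of 7 genes are called higher, and the other lists have 1 to 3 called genes each.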

How the data were processed

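TRIzol was used to extract the RNA, and a service provider sequenced it on an Illumina machine. The submitters' processing notes name bcl2fastq 2.0, HISAT2, StringTie, DESeq2, limma and the build hg38; the counting tool, annotation release and strand setting are not given in the sources used here. The deposited counts per gene are whole and not normalized, and the deposited FPKM are scaled to gene length and library total. A count of 4 occurred in 8101 gene and library pairs, against 2780 for 3 and 1758 for 5, so a count may not be 1 fragment.

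The counts of 13452 genes (mean of 0.5 FPKM or more over 6 libraries) were tested with edgeR 4.0.16 in R 4.3.3 (quasi-likelihood test, TMM scaling, 2-sided, Benjamini-Hochberg adjustment over all tested genes). CPM used TMM scaling, and SE is the size of the log2 fold change over the square root of F. Called means an adjusted p under 0.05. Alternatives were DESeq2 1.42.0, its size factors, library totals, other filters, limma 3.58.1 on log2(FPKM + 0.1) or log2(FPKM + 1), a replicate block and leaving out each library. Of the 40 genes, 37 have the same start and end in GENCODE 29, whose exons gave the shared bases. Genes were named if they were on the receptor list, or if they were called in another list, at most 3 in each direction with the largest fold changes. Genes named outside this rule are given as chosen after their values were seen. From the list of retinoid, vitamin D and thyroid hormone targets, 2 further genes were left out and are not reported here. Members and lists were chosen with earlier results of these data known.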

Additional observations from a re-analysis of the deposited data

How the results depend on the processing

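None of the 10 called receptor genes changed direction in 139 alternative values, and 25 of these, all of ESRRA, NR2F2 or NR2F6, missed the threshold. The count of genes that fell, 8, was 8 with DESeq2, its size factors or a mean of at least 1 FPKM, 6 with library totals, no filter or limma, and 5 to 6 when 1 library was left out. The count that rose, 2, was 1 at a mean of at least 1 FPKM, since RARG lies under that filter. Library totals moved the median of all genes by 0.06. Over all tested genes 2033 were called, and 1176 (without sh-LINC01977 replicate 2) to 1398 without 1 library.

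The replicate numbers showed no clear pairing of the libraries. Correlations of deviations were -0.03, 0.02 and 0.06 for libraries of the same number, and not every library correlated best with its own number. With 3 libraries a group this check is too small to detect a weak pairing. With a replicate block 5 receptor genes fell, 2 rose and 1 clock gene was called.

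Among uncalled receptors 26 of 249 values had the opposite sign. With library totals, limma at +0.1 and limma at +1 the log2 fold changes were 0.050, 0.046 and 0.039 for PPARG, 0.016, 0.024 and 0.019 for RARA, 0.052, 0.049 and 0.031 for THRB and 0.024, 0.021 and 0.017 for NR1D1. Leaving out 1 library gave ranges of -0.048 to 0.10 for NR1H3, of -0.96 to 0.37 for PPARA, of -0.065 to 0.041 for PPARG, of -0.16 to 0.032 for RARA, of -0.063 to 0.044 for THRB, of -0.25 to 0.11 for NR1D2 and of -0.81 to 0.11 for HNF4G.

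Coregulator calls (3) were 6 with DESeq2, 1 with either limma and 1 to 3 without 1 library. Bile acid targets (1) gave 2 with no filter or DESeq2 and 1 to 2 without 1 library. Liver X receptor targets (1) gave 2 with library totals, DESeq2 or limma at +1 and 0 to 1 without 1 library. PPAR targets (2) gave 1 with library totals or either limma and 1 to 2 without 1 library. Clock genes (2) gave 1 with no filter, a mean of at least 1 FPKM, either limma or 1 library left out. Xenobiotic targets (3) gave 1 to 2 without 1 library. The causes were not tested. Of the receptors, 12 lay under the filter, with 0 to 731 counts a library.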

Other observations

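Some target genes lay under the filter and were read from the edgeR fit of all 29153 genes. CYP26B1, which breaks down retinoic acid, had 35, 42 and 75 counts in sh-NC and 178, 169 and 144 counts in sh-LINC01977 libraries. The groups did not overlap, and the gene rose by a log2 fold change of 1.65 ± 0.29 (adjusted p = 0.019, edgeR). Its relative CYP26A1, a classic retinoic acid target, had 16, 5 and 20 counts in sh-NC and 62, 58 and 30 counts in sh-LINC01977 libraries, with a log2 fold change of 1.82 ± 0.52 that was not called (adjusted p = 0.11, edgeR).

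KNG1, the kininogen gene and a target of the bile acid receptor, had 177, 149 and 183 counts in sh-NC and 66, 53 and 57 counts in sh-LINC01977 libraries. The groups were well apart, and the gene fell by 1.57 on the log2 scale (SE 0.21, adjusted p = 0.0065, edgeR). CYP7A1, the rate-limiting enzyme of bile acid synthesis, had 6, 0 and 5 counts in sh-NC and 0 in every sh-LINC01977 library, too few to read a difference. G6PC, the last enzyme of glucose release, had 38, 50 and 109 counts in sh-NC and 0, 16 and 4 counts in sh-LINC01977 libraries and was not called (adjusted p = 0.10, edgeR). These 5 genes were named after their values were seen.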
